A study of Mus musculus with 4 samples.

Results

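The insulin-like growth factor (IGF) system was followed through 10 genes, chosen by name from the 54446 rows of a table of transcript levels. They code for the ligands (Igf1, Igf2), their receptors (Igf1r, Igf2r) and 6 binding proteins (Igfbp2 to Igfbp7). Each name matched 1 row. The RNA came from satellite cells, which are muscle stem cells, taken from the hindlimb of C57BL/6 mice and grown in F10 medium with 10% HS. The 2 knockdown samples had received siRNA against the long non-coding RNA LncMyoD, whose name refers to the gene Myod1, and the 2 control samples had received a control siRNA, with harvest at 48 h. No transgene or deletion is given for either group. The treatment text of the control samples also names LncMyoD, so the groups rest on titles, descriptions and treatment tags, and the level of the target itself was not analysed here. Separate cultures or animals are not stated for the replicates, and the p-values therefore reflect sample spread alone, which may be technical. Where values are given per library, replicate 1 precedes replicate 2.

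IGF1 and IGF2 are secreted ligands that act on the receptor tyrosine kinase IGF1R, from which signals run through insulin receptor substrates to PI3K, AKT and mTOR and through RAS to the ERK kinases. IGF2R, the cation-independent mannose 6-phosphate receptor, has no kinase and takes IGF2 into lysosomes. IGF binding proteins hold the ligands in the medium and the matrix, where proteases release them. In muscle, these ligands are known for promoting both the proliferation and the differentiation of myoblasts, and Igf2 is known to be induced as myoblasts differentiate.

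Libraries were alike in depth, the deepest holding 1.12 times the reads of the shallowest. Levels were given in FPKM, fragments mapped per kilobase of transcript, scaled to the library, so that genes can be compared per length. For a transcript of 1 kb, 1 FPKM rested on 36.7 to 41.1 reads of 150 nt. Markers of satellite cells and myoblasts had a mean of at least 1 FPKM for 7 of 8 genes. Myod1 stood at 583 and 667 FPKM in the knockdown libraries and at 698 and 691 FPKM in the controls. Pax7, a transcription factor of satellite cells, stood at 1.40 and 0.625 FPKM against 1.02 and 0.859. Of these 8 markers, knockdown replicate 1 was below both controls for 6 and above both for 2. Knockdown replicate 2 was below both for 4 and above both for 4. All 8 markers of differentiating muscle cells had a mean of at least 1 FPKM. Their summed level was 10295 and 7569 FPKM in the knockdown libraries and 11895 and 11361 in the control libraries. Myog, 1 of the 8, stood at 3406 and 2793 FPKM in knockdown and at 4196 and 3931 FPKM in control, far above Pax7. The levels below are those of cultures with high differentiation markers and cannot be read as those of satellite cells alone. Markers of other cell types were mostly low. A mean of 1 FPKM was reached by 2 of 7 fibro-adipogenic genes (summed level 31.3 and 32.0 FPKM for knockdown, 27.7 and 29.5 FPKM for control). Col3a1, at 23.0 to 29.4, was above both controls in both knockdown libraries. Col1a1 was below both controls, at 3.20 and 2.18 FPKM against 3.76 and 4.70. A mean of 1 FPKM was also reached by 2 of 7 endothelial genes (6.84 and 6.58 against 5.88 and 8.20), led by Eng. The same held for 1 of 6 macrophage and leukocyte genes (3.14 and 2.14 against 2.83 and 1.66), 0 of 5 Schwann cell genes and 2 of 3 tenocyte genes (12.8 and 20.4 against 15.8 and 16.8), of which Scx made up most. The pan-leukocyte gene Ptprc and the endothelial receptor gene Kdr were at 0 in every library, and Pdgfra, which marks fibro-adipogenic progenitors, was at 0 in 3 and at 0.160 FPKM in control replicate 1.

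The neighbouring binding protein genes Igfbp2 and Igfbp5 lay farthest from 0 in opposite directions, and the 250 bases upstream of the RefSeq start of each are shown for that reason (GRCm38.p6, strand of the gene). Capitals mark the E-box CANNTG, the core motif of MyoD and other basic helix-loop-helix factors. The Igfbp2 window is chr1:72824230-72824479 on the plus strand, for the first of its 2 listed starts, and the Igfbp5 window is chr1:72874866-72875115 on the minus strand.
Igfbp2: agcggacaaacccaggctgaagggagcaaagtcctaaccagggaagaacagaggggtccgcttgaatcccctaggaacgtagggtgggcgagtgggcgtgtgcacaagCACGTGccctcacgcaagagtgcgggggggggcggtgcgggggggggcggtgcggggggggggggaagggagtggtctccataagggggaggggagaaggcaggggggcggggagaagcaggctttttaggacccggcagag
Igfbp5: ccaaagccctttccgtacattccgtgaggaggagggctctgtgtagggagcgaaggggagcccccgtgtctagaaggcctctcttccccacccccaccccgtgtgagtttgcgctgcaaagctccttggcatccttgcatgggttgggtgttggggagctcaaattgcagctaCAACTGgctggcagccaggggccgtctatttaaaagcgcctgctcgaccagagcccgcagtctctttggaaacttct
Each window held 1 E-box, CACGTG upstream of Igfbp2 and CAACTG upstream of Igfbp5. The motif reads as CANNTG on either strand. All 10 genes had entries in the RefSeq promoter table, with 14 windows between them, of which 9 (64.3%) held CANNTG against 66.2% of all 32851 windows of 250 bases. CAGCTG, a form of the motif that MyoD favours, was in 1 of the 14, upstream of Igf1, against 13.0% of all windows. These matches are letters in a window and were not measured as binding sites.

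Levels spanned a wide range within the family. Igfbp7 was the highest, with a mean of 59.2 FPKM over the 4 libraries, followed by Igfbp3 at 18.1 and Igf1 at 10.2. The ranges of these top ranks over the 4 libraries did not overlap. Below them, Igfbp5 had a mean of 6.80 FPKM, Igfbp2 5.07, Igf2r 3.81, Igfbp6 2.48, Igf1r 1.46, Igf2 1.29 and Igfbp4 1.07. From Igf1 down, each gene's range overlapped that of the next in the order, so neighbouring ranks there were not separated beyond their spread. Other genes of the insulin and binding protein families were near 0. Ins1, Ins2, Insrr, Igfbp1 and Igfbpl1 were listed at 0 in every library, Igfals was above 0 in 1 library alone, at 0.232 FPKM, and the insulin receptor gene Insr was at 0.249 to 0.574.

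**Figure D1:**
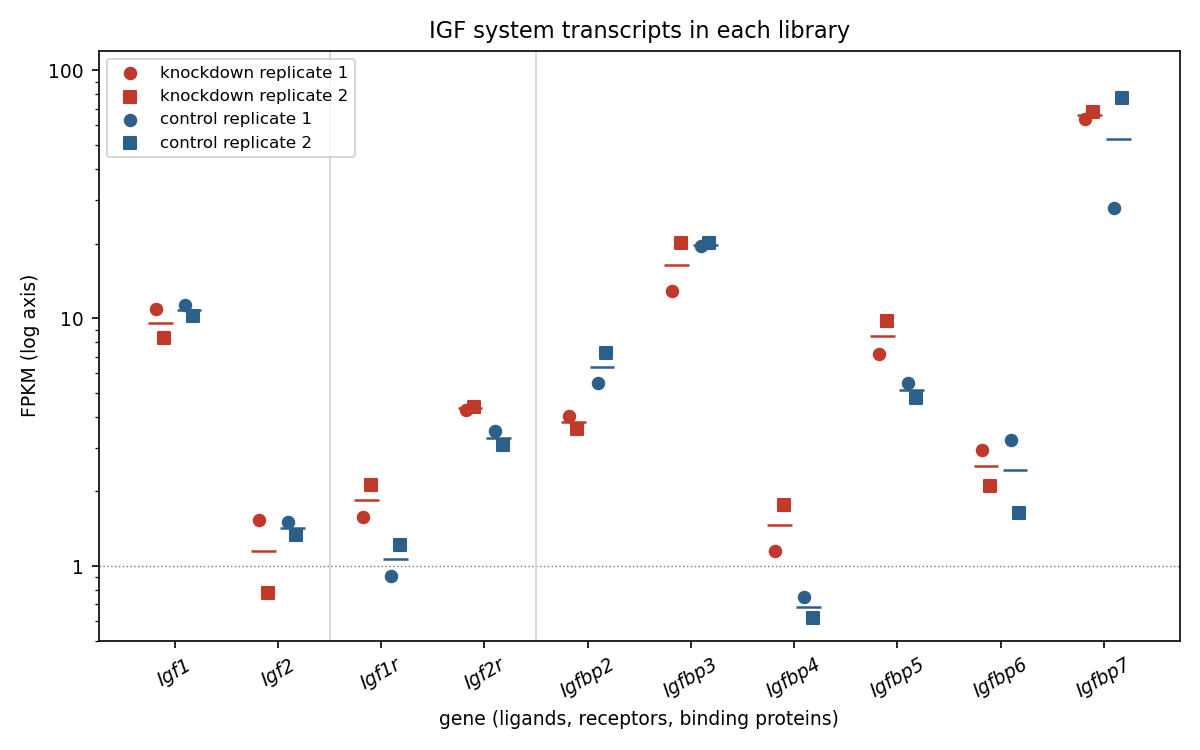
FPKM on a log axis for the ligands, receptors and binding proteins, with knockdown libraries in red and control libraries in blue, replicate 1 as circles and replicate 2 as squares, and bars at the group means. Igfbp7 in control replicate 1, at 27.9 FPKM, sits far below the other 3 libraries, and the dotted line at 1 FPKM marks the filter on the mean over all libraries.

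All 10 genes passed the filter of a mean of at least 1 FPKM, and 0 passed the test of knockdown against control (limma on log2(FPKM + 1), adjusted p under 0.05 over 10900 genes), where 0.0550% of all genes tested passed, 0.00917% as higher and 0.0459% as lower. At an unadjusted p under 0.05 there were 2 of 10, Igfbp5 on the higher side and Igfbp2 on the lower, against 7.08% of all genes in either direction, 4.39% higher and 2.70% lower. In 4 of 10 (Igf1r, Igf2r, Igfbp4 and Igfbp5) both knockdown libraries lay above both controls, a pattern seen in 22.1% of all genes. Of these, Igfbp4 passed the filter only through the knockdown libraries, where it was high. It counts in the 4 and in the median below. Igfbp2 was the 1 gene with both knockdown libraries below both controls, as in 16.3% of all genes, and the groups overlapped in the other 5. Over the 10 genes the median log2 fold change (the knockdown mean less the control mean of log2(FPKM + 1)) was 0.19, with 6 positive and 4 negative, beside a median of 0.026 over all genes tested, of which 54.8% were positive.

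Among the ligands, Igf1 (ENSMUSG00000020053, chromosome 10, 87858265 to 87937042, plus strand, GRCm38) stood at 10.9 and 8.32 FPKM in the knockdown libraries and at 11.3 and 10.2 FPKM in the control libraries. The groups overlapped, with knockdown replicate 2 the lowest library. The log2 fold change was -0.16 ± 0.18 (SE), with a 95% interval of -0.60 to 0.28 and a limma adjusted p of 0.884, and it was 0.017 without knockdown replicate 2. Likeness of pattern was taken as the distance between centred log2 values over the 4 libraries. The tested genes most like Igf1 were Tmem185b (0.034) and Tti2 (0.034), where the median distance of all genes was 0.472. Here and below, genes named for likeness are the nearest of all those tested, so their small distances were fixed by the choice.

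Igf2 (ENSMUSG00000048583, chromosome 7, 142650766 to 142666816, minus strand), an imprinted gene read from the paternal copy, stood at 1.53 and 0.776 FPKM in the knockdown libraries and at 1.51 and 1.33 FPKM in the controls. Knockdown replicate 2 again stood lowest, and the other 3 libraries lay close together. Its log2 fold change was -0.19 ± 0.26 (SE), with a 95% interval of -0.82 to 0.44 and a limma adjusted p of 0.904. It was 0.065 without knockdown replicate 2 and -0.45 without knockdown replicate 1, and -0.34 on log2(FPKM + 0.1) and -0.064 on log2(FPKM + 5). Gm49394, a read-through gene annotated on the same strand, shares 3596 exonic bases with Igf2 (62.8% of them), and it was listed at 0 in every library, as was the antisense gene Igf2os. The ratio of Igf1 to Igf2 was 7.12 and 10.7 in knockdown and 7.50 and 7.67 in control, so the ligand of higher level per length was Igf1 in each library. H19, the imprinted non-coding neighbour of Igf2, stood at 66.1 and 145 FPKM in the knockdown libraries and at 157 and 81.7 FPKM in the controls. Its replicates differed more within each group than the group means did. The H19 log2 fold change was -0.21 (limma adjusted p 0.942), and it was 0.35 and 0.26 without knockdown replicate 1 and control replicate 1.

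Knockdown replicate 2, the lowest library for both ligands, also had the lowest summed level of the differentiation markers, 7569 FPKM. The part of this in the ligand values was not tested.

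Both receptors had higher values in the 2 knockdown libraries, without passing the test. Igf1r (ENSMUSG00000005533, chromosome 7, 67952827 to 68233668, plus strand), the signalling receptor, stood at 1.58 and 2.12 FPKM in the knockdown libraries and at 0.912 and 1.22 FPKM in the controls. The groups did not overlap, though control replicate 2 and knockdown replicate 1 lay near each other. Mean levels were 1.85 ± 0.385 FPKM against 1.06 ± 0.214 (SD, n = 2), a ratio of 1.74. For Igf1r the log2 fold change was 0.46 ± 0.23 (SE), with a 95% interval of -0.10 to 1.03 and a limma adjusted p of 0.717. On log2(FPKM + 0.1) it was 0.74 and on log2(FPKM + 5) it was 0.17.

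Igf2r (ENSMUSG00000023830, chromosome 17, 12682406 to 12769664, minus strand) stood at 4.26 and 4.40 FPKM in the knockdown libraries and at 3.50 and 3.08 FPKM in the controls, with replicates closer together than for Igf1r. Mean levels were 4.33 ± 0.0997 FPKM against 3.29 ± 0.296 (SD, n = 2), a ratio of 1.31. Its log2 fold change was 0.31 ± 0.19 (SE), with a 95% interval of -0.15 to 0.77 and a limma adjusted p of 0.761, and it was 0.17 on log2(FPKM + 5). Igf2r exceeded Igf1r per length in every library, by 2.70 and 2.07 times in knockdown and by 3.84 and 2.54 times in control. Usf1 and Tirap had the patterns most like that of Igf2r over the 4 libraries, at distances of 0.019 and 0.018 against a median of 0.442.

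Airn, the non-coding RNA known to silence Igf2r in cis on the paternal copy, is read from the opposite strand and overlaps 28354 bases of the Igf2r gene. It stood at 2.72 and 2.32 FPKM in the knockdown libraries and at 0.756 and 1.38 FPKM in the controls, so both knockdown libraries lay above both controls here too. The log2 fold change of Airn was 0.78 ± 0.25 (SE), with an unadjusted p of 0.0186 and a limma adjusted p of 0.631, and it was 1.22 on log2(FPKM + 0.1) and 0.31 on log2(FPKM + 5). No strand setting is given for these values, so reads of Airn and reads from within introns of Igf2r cannot be told apart. Of 8 listed neighbours of the IGF genes, 3 were tested (Airn, H19 and Tnfrsf23) and 0 passed the adjusted test, with Tnfrsf23, a decoy receptor gene, at a log2 fold change of -0.10 (-0.053 without knockdown replicate 2, -0.063 without control replicate 2 and -0.050 on log2(FPKM + 5)).

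The binding protein genes held the values farthest from 0 in both directions. Igfbp5 (ENSMUSG00000026185, chromosome 1, 72857932 to 72874884, minus strand), which codes for a binding protein that attaches to the extracellular matrix and is made by differentiating myoblasts, stood at 7.16 and 9.77 FPKM in the knockdown libraries and at 5.49 and 4.77 FPKM in the controls. Knockdown replicate 2 was the highest and control replicate 2 the lowest, with no overlap of the groups. Mean levels were 8.46 ± 1.85 FPKM against 5.13 ± 0.507 (SD, n = 2), a ratio of 1.65. Its log2 difference was 0.62 ± 0.21 (SE), with a 95% interval of 0.12 to 1.12, an unadjusted p of 0.0236 and a limma adjusted p of 0.645. It ranked 395 of 10900 genes by p. Leaving out 1 library at a time gave 0.41 to 0.82, and log2(FPKM + 5) gave 0.40.

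Igfbp2 (ENSMUSG00000039323, chromosome 1, 72824503 to 72852474, plus strand), whose product binds IGF2 and, through an RGD motif, integrins, stood at 4.04 and 3.56 FPKM in the knockdown libraries and at 5.47 and 7.22 FPKM in the controls. The groups did not overlap, and control replicate 2 was the highest. Mean levels were 3.80 ± 0.333 FPKM against 6.35 ± 1.24 (SD, n = 2), 1.67 times as high in control. Its log2 difference was -0.61 ± 0.20 (SE), with a 95% interval of -1.10 to -0.11, an unadjusted p of 0.0249 and a limma adjusted p of 0.649. Leaving out 1 library at a time gave -0.78 to -0.43, and log2(FPKM + 5) gave -0.36.

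Igfbp2 and Igfbp5 lie tail to tail, with 5457 bases between their annotated ends and the upstream windows printed above at the outer ends. The ratio of Igfbp5 to Igfbp2 was 1.77 and 2.74 in knockdown and 1.00 and 0.661 in control. In the knockdown libraries Igfbp5 was thus the higher of the pair per length, while in control replicate 1 they were level and in control replicate 2 Igfbp2 was higher. This ratio was chosen after its values were seen and is given without a test. The summed differentiation markers were also lower in both knockdown libraries. Gene by gene, knockdown replicate 2 was below both controls for 8 of the 8, while knockdown replicate 1 was below both for 5 and above both for 3 (Myh3, Mylpf and Tnnt3). The 7 markers of smooth muscle and pericytes summed to 2.39 and 2.32 FPKM for knockdown and 4.24 and 3.81 FPKM for control, carried by Mcam (0.826 and 0.570 against 2.22 and 1.94) and Cspg4 (1.02 and 1.04 against 1.53 and 1.42). Pdgfrb lay the other way, at 0.460 and 0.634 FPKM for knockdown and 0.150 and 0.184 for control. The pericyte gene Kcnj8 was at 0 in every library. Rgs5, Myh11 and Abcc9 were near 0 too, reaching at most 0.0981, 0.0337 and 0.262 FPKM in any library. The part of either marker group in the Igfbp2 and Igfbp5 values was not tested. In bulk RNA, fewer cells of a type and less RNA per cell cannot be told apart.

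**Figure D2:**
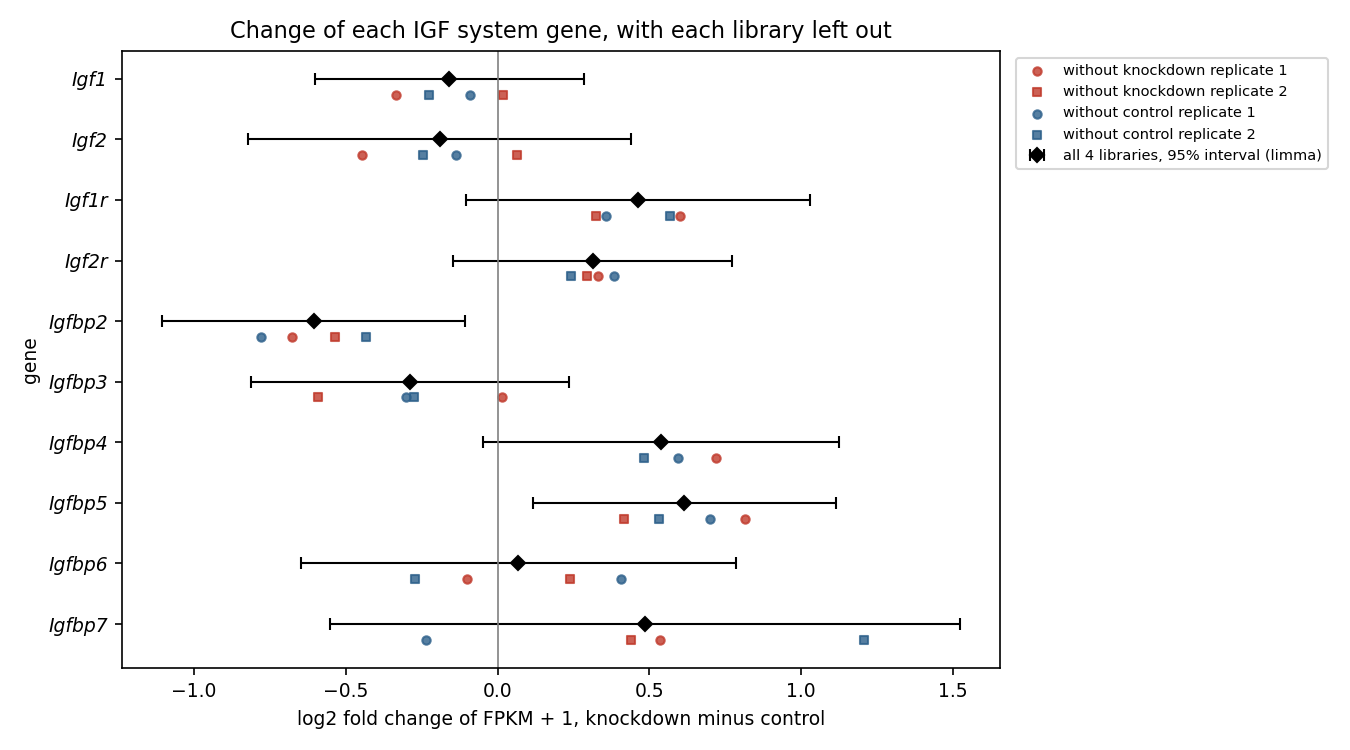
Log2 fold change of FPKM + 1 (knockdown minus control) for each gene, as black diamonds with the 95% interval from limma, and below each the value with 1 library left out (red, a knockdown library; blue, a control library). The intervals of Igfbp5 (0.12 to 1.12) and Igfbp2 (-1.10 to -0.11) are the 2 that leave out 0, and the points of Igfbp7 run from -0.24 to 1.21.

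Igfbp4 (ENSMUSG00000017493, chromosome 11, 99041244 to 99054392, plus strand) codes for an inhibitor of IGF action that is cleaved by the protease PAPP-A. It stood at 1.15 and 1.77 FPKM in the knockdown libraries and at 0.750 and 0.618 FPKM in the controls, with no overlap. Both controls lay under 1 FPKM, so Igfbp4 passed the filter on the mean only through the knockdown libraries. The log2 fold change was 0.54 ± 0.24 (SE), with a 95% interval of -0.05 to 1.12 and a limma adjusted p of 0.698, and it was 0.97 on log2(FPKM + 0.1) and 0.18 on log2(FPKM + 5). These values rested on 92.3 to 278 reads per library over its longest transcript of 3831 bases, against 1118 to 2409 for Igfbp5 over 6006 bases. Over the shortest transcripts they rested on 10.9 to 32.8 reads (452 bases), against 797 to 1717 for Igfbp5 (4281 bases).

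Igfbp3 (ENSMUSG00000020427, chromosome 11, 7206086 to 7213923, minus strand), which codes for the main carrier of IGFs in serum, stood at 12.8 and 20.0 FPKM in the knockdown libraries and at 19.6 and 20.0 FPKM in the controls. Knockdown replicate 1 stood apart, and the other 3 libraries lay close together. The log2 fold change was -0.29 ± 0.21 (SE), with a limma adjusted p of 0.806. It was -0.59 without knockdown replicate 2 and 0.015 without knockdown replicate 1, so that 1 library set both its direction and its size.

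Igfbp7 (ENSMUSG00000036256, chromosome 5, 77349240 to 77408041, minus strand), whose product is secreted and binds IGFs only weakly, stood at 63.6 and 68.0 FPKM in the knockdown libraries and at 27.9 and 77.6 FPKM in the controls. The controls enclosed the knockdown libraries, with control replicate 1 well below every other library. Mean levels were 65.8 ± 3.13 FPKM against 52.7 ± 35.1 (SD, n = 2). On the log2 scale the change was 0.49 ± 0.43 (SE), with a 95% interval of -0.55 to 1.52 and a limma adjusted p of 0.836. It turned to -0.24 without control replicate 1 and was 1.21 without control replicate 2. The lowest value rested on 1310 reads over the longest transcript of 1200 bases. On the opposite strand, Polr2b shares 85 exonic bases with Igfbp7 (7.03%), and it had 61.9, 47.2, 57.7 and 59.3 FPKM in the same order of libraries. The part of this overlap in the Igfbp7 values was not tested. The patterns most like that of Igfbp7 were those of Gm43681 and Zfp956, at distances of 0.068 and 0.136 against a median of 1.17. In control replicate 1 these genes stood at 0.00931 and 0.0387 FPKM, and in the other libraries at only 1.15 to 1.86 FPKM. Control replicate 1 was among the values that picked them, so they are no separate sign of its low Igfbp7 value.

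Igfbp6 (ENSMUSG00000023046, chromosome 15, 102144362 to 102149511, plus strand) codes for a binding protein with a preference for IGF2. It stood at 2.94 and 2.11 FPKM in the knockdown libraries and at 3.22 and 1.64 FPKM in the controls, so replicate 1 was the higher library in both groups and the groups overlapped. Its log2 fold change was 0.07 ± 0.29 (SE), with a 95% interval of -0.65 to 0.78 and a limma adjusted p of 0.971, and it took either sign with 1 library left out (-0.27 to 0.41). With quantile normalization it was -0.018.

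Summed over the 6 binding proteins, the level was 91.7 and 105 FPKM for knockdown and 62.5 and 112 FPKM for control. Igfbp7 took 69.3% and 64.6% of that sum in knockdown and 44.7% and 69.3% in control. Without Igfbp7 the sum was 28.1 and 37.3 FPKM for knockdown and 34.6 and 34.3 FPKM for control. Within that remainder, the share of Igfbp5 was the higher in both knockdown libraries. Igfbp5 made up 25.5% and 26.2% of it in knockdown against 15.9% and 13.9% in control. Igfbp2 made up 14.4% and 9.57% against 15.8% and 21.1%, and Igfbp3 45.6% and 53.8% against 56.8% and 58.4%. These shares follow from the levels already given and were not tested.

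**Figure D3:**
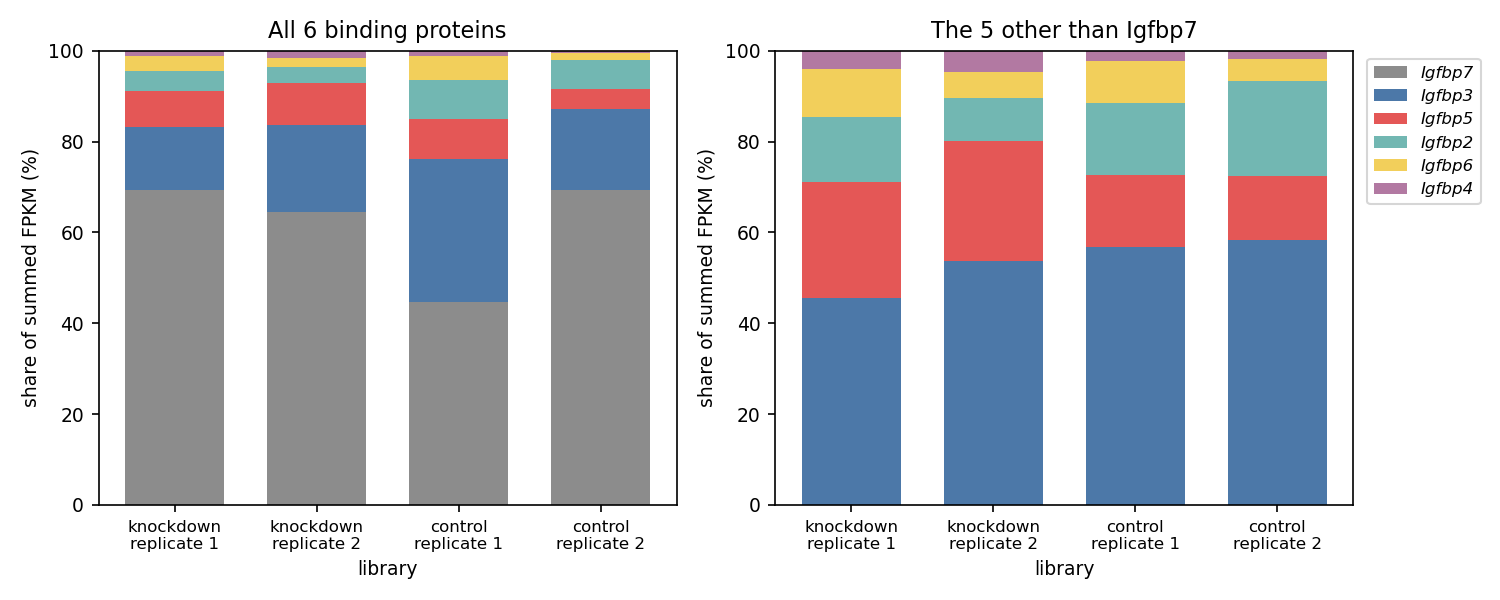
Share of summed FPKM taken by each binding protein gene in each library, for all 6 (left) and for the 5 other than Igfbp7 (right). On the right, the red segment of Igfbp5 covers 25.5% and 26.2% in the knockdown libraries and 15.9% and 13.9% in the controls.

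Around the 10 genes, 74 further genes of the pathway were read by role, of which 50 passed the filter. Of these, 0 passed the adjusted test in either direction, where 0.0550% of all genes did. At an unadjusted p under 0.05, 3 were higher, among them Grb10 and Plaur, and 1 was lower (Mmp2), against 4.39% and 2.70% of all genes. Both knockdown libraries lay above both controls in 11 of the 50 and below in 9, where the shares over all genes were 22.1% and 16.3%. Of the 11, Pik3r1 and Braf had both controls under 1 FPKM. They passed the filter on the mean only through the knockdown libraries, where they were higher. The median log2 fold change of the 50 was 0.048, with 27 positive and 23 negative. Pik3r1, Braf and Htra1, whose controls also lay under 1 FPKM, count in the 27 and in the median.

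Genes that act on the ligands and binding proteins outside the cell included several at or near 0. Of 10 proteases, protease inhibitors and convertases, 6 were tested. Pappa, which codes for the IGFBP4 protease PAPP-A, was at 0 in 3 libraries and at 0.0718 FPKM in control replicate 2, while Stc2, an inhibitor of PAPP-A, stood at 9.92 and 6.26 FPKM in the knockdown libraries and at 10.7 and 11.3 FPKM in the controls. Mmp2, a gelatinase, stood at 7.98 and 11.1 FPKM in the knockdown libraries and at 14.1 and 12.8 FPKM in the controls, for a log2 difference of -0.47 (-0.26 without knockdown replicate 1) and a limma adjusted p of 0.698. Mmp14, the membrane protease that activates it, stood at 28.2 and 29.9 FPKM against 20.5 and 25.4, for a log2 difference of 0.33 (0.19 without control replicate 1) and a limma adjusted p of 0.698. The genes Igf2bp1, Igf2bp2 and Igf2bp3, whose products bind Igf2 mRNA, were all under the filter, at 0.05 to 0.129, 0.215 to 0.624 and 0 to 0.140 FPKM.

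Among 7 receptor adaptors tested, 2 had positive and 5 negative fold changes. Grb10, an imprinted adaptor that binds the IGF1 and insulin receptors and dampens their signal, stood at 77.1 and 67.0 FPKM in the knockdown libraries and at 41.1 and 41.6 FPKM in the controls. The groups did not overlap and replicates lay close together. Its log2 fold change was 0.78 ± 0.11 (SE), with a 95% interval of 0.51 to 1.06, an unadjusted p of 0.000435 and a limma adjusted p of 0.265. Its level per length was far above those of the receptors it binds in every library. Shc1, which links receptors to RAS, stood at a log2 fold change of -0.23, or -0.011 without knockdown replicate 1, -0.13 without control replicate 1 and -0.45 without knockdown replicate 2. The substrates Irs1 and Irs2 were at 2.09 to 2.60 and 0.462 to 0.921 FPKM.

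In the PI3K, AKT and mTOR list, 6 of 18 tested genes had positive and 12 negative fold changes, between -0.38 and 0.29. The value of 0.29 was that of Pik3r1, which passed the filter only through the knockdown libraries. Eif4ebp1, the translational repressor inactivated by mTOR, stood at 157 and 154 FPKM in the knockdown libraries and at 186 and 173 FPKM in the controls, for a log2 difference of -0.21 and a limma adjusted p of 0.698. Pik3ca, the catalytic subunit of PI3K, stood at 1.43 and 1.19 FPKM against 1.79 and 2.23, for a log2 difference of -0.38 (-0.58 on log2(FPKM + 0.1) and -0.15 on log2(FPKM + 5)) and a limma adjusted p of 0.750. All 6 FoxO and atrophy genes tested had positive values, from 0.06 to 0.28, and the groups overlapped in each. The ubiquitin ligase gene Fbxo32 had 0.28, which was -0.024 without knockdown replicate 2 and 0.17 on log2(FPKM + 5). Foxo3 had 0.17, which was -0.092 without control replicate 1 and 0.064 on log2(FPKM + 5).

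In the ERK arm, 5 of 8 tested genes were positive and 3 negative. Braf, which passed the filter only through the knockdown libraries, is among the 5. Mapk3, which codes for ERK1, stood at 6.62 and 9.57 FPKM in the knockdown libraries and at 6.05 and 5.90 FPKM in the controls, for a log2 difference of 0.36, which was 0.13 without knockdown replicate 2 and 0.60 without knockdown replicate 1. Among partners of IGF2R, Plaur, the urokinase receptor, stood at 33.2 and 33.9 FPKM in the knockdown libraries and at 20.6 and 22.5 FPKM in the controls, for a log2 difference of 0.62 ± 0.12 (SE) and a limma adjusted p of 0.523. Nagpa, an enzyme that uncovers the mannose 6-phosphate tag, stood at 8.23 and 5.08 FPKM against 10.9 and 8.35, for a log2 difference of -0.49 and a limma adjusted p of 0.717. For Nagpa it was -0.19 without knockdown replicate 2, -0.32 without control replicate 1 and -0.80 without knockdown replicate 1.

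**Figure D4:**
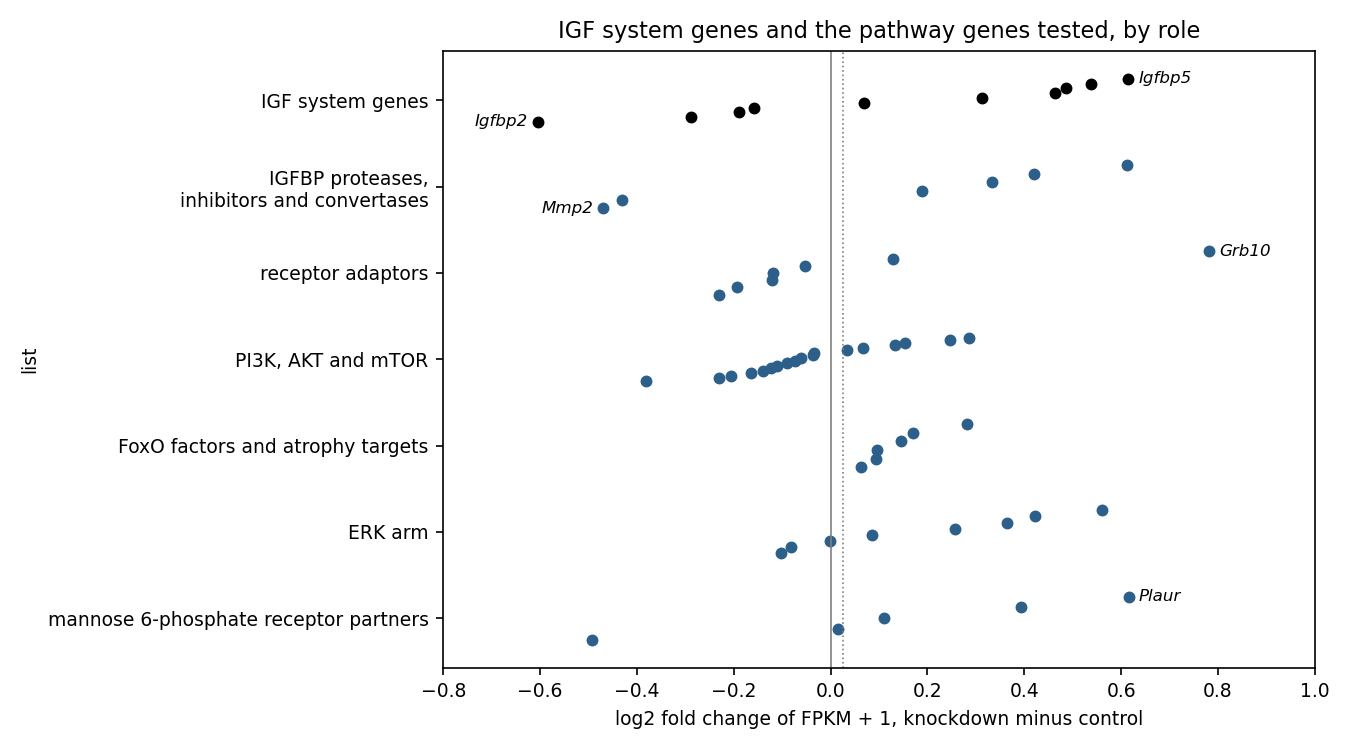
Log2 fold change of FPKM + 1 (knockdown minus control) for the 10 IGF system genes (black) and the 50 pathway genes tested (blue), by role, 1 point a gene, spread within a row for legibility. Igfbp2, Igfbp5, Grb10, Plaur and Mmp2, each with an unadjusted p under 0.05, are named, none passed the adjusted test, and the dotted line is the median of all genes tested (0.026).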

How the data were processed

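Polyadenylated RNA of 4 samples was made into SMART-Seq v4 cDNA and sequenced as paired reads of 150 nt, per the labels' protocols. Build mm10, StringTie 1.3.3, HISAT2 2.1.0, SAMtools 1.3, Trimmomatic 0.36 and bcl2fastq 2.19 are listed without roles, per the submitters' processing notes. Annotation and strand setting: not given in the sources used here. The authors deposited 1 FPKM value per gene and sample, a unit read from the values. In genes of 1 exon and 1 transcript, FPKM times length was a whole multiple of a fixed step (tolerance 0.1) for 86.0% to 87.2% of values, where chance gives 20.0%, which gave the depth. The 10900 genes averaging 1 FPKM or more over all libraries entered limma 3.58.1 (R 4.3.3) as log2(FPKM + 1), using its intensity trend, two-sided, with Benjamini-Hochberg adjustment and a threshold of 0.05. Fold changes on this scale understate those of low genes. Steps were tested on simulated data with known changes. High recovery was required there only for changes far larger than those of the IGF genes. The test does not show that smaller changes would be found. Coordinates came from GENCODE M21 on GRCm38. Python 3.11.15 with pandas 2.3.3 was used for summaries.

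The members and lists were chosen with earlier results of these data known. All 10 members are described. Of each pathway list, the genes with the lowest p are named, except 1 gene that is not reported here, and for the ligand, receptor and binding protein of highest level the 2 genes nearest in centred log2 values. H19 and further genes given as levels were chosen after their values were seen. Alternatives were other pseudocounts, filters and scalings, limma without the trend, a replicate block, summed rows and each library left out.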

Additional observations from a re-analysis of the deposited data

How the results depend on the processing

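Under the alternatives run, 0 of the 10 IGF genes and 0 of the pathway genes passed the adjusted test. Of 115 values of the 10 genes, 108 kept their direction and 7 reversed. The filters, limma without the trend, the replicate block and the summed rows left each fold change as it was. Their values could not reverse, so the 108 say little about how firm the directions are. Without 1 library at a time, Igf1 ran from -0.33 to 0.017, Igf2 from -0.45 to 0.065, Igfbp3 from -0.59 to 0.015, Igfbp6 from -0.27 to 0.41 and Igfbp7 from -0.24 to 1.21. The same gave -0.77 to 0.35 for H19, -0.024 to 0.59 for Fbxo32 and -0.092 to 0.43 for Foxo3. Igfbp6 was also -0.018 with quantile normalization. A lone sample was assumed to vary like the other group, and Igfbp4 gave no value without knockdown replicate 2. Igf2, Igf1r, Igf2r, Igfbp4 and Igfbp6 gave none with the filter at a mean of 5 FPKM.

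The median log2 fold change of the 10 genes was 0.097 with a pseudocount of 5, 0.11 with quantile normalization, -0.16 over the 5 genes left by the filter at 5 FPKM, and 0.0077 to 0.24 without 1 library. That of the pathway list was 0.020 with a pseudocount of 5, 0.011 without a filter, -0.044 with the filter at 5 FPKM, 0.026 with median ratio scaling, 0.0058 with quantile normalization and -0.0090 to 0.041 without 1 library. The median over all genes tested moved as well, from 0.026 to 0.018 with a pseudocount of 5. It was 0.00074 with median ratio scaling and -0.0049 with quantile normalization. A larger pseudocount shrinks log2 fold changes, and both scalings align the libraries with each other. The median over all genes was thus bound to move toward 0 under these settings. Filters changed which genes were tested. The part of this in the shifts of the 10 genes and of the pathway list was not tested. Over all genes, 6 were called, and 0 without a filter (1508 of 24969 at an unadjusted p under 0.05), 3 with the replicate block and 5 to 15 without 1 library.

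The replicate block changed no call among the 10 genes (limma adjusted p 0.750 for Igfbp5 and for Igfbp2). The labels tie same-numbered samples by number alone, and what else these shared is not stated. Their deviations had a correlation of -0.021 over 10900 genes. Counted over the longest transcript, Igfbp6 rested on the fewest reads of the 10 genes, 71.2 to 140 per library.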
